A study of Mus musculus with 4 samples.

Results

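The Fc gamma receptor genes Fcgr1, Fcgr2b, Fcgr3 and Fcgr4, the adaptor genes Fcer1g and Tyrobp, the receptor gene Trem2 and the kinase genes Syk and Lyn were examined in microglia of the embryonic mouse cortex. These 9 genes were taken by symbol from the deposited tables, which held 21981 genes in all, and each of the 9 had a count in every library. The microglia, the resident macrophages of the brain, came from the cerebral cortex of untreated mouse embryos at embryonic day 16. The control libraries (control 1 and control 6) carried the Bach1 fl/fl alleles, in which sequence of the gene is flanked by recombination sites. The knockout libraries (cKO 2 and cKO 5) were labelled Bach1 cKO, and the series text names the line Bach1cKO-Cx3. Beyond the name Cx3, the sources used here do not describe the knockout driver or the cells it acts in. BACH1 is a repressor of transcription that senses heme. Whether the 4 libraries stem from different animals is not stated, so p-values measure only the spread between these samples, which may be technical. The series text speaks of triplicates, and libraries beyond these 4 were not analysed here. Where 4 values follow each other, their order is control 1, control 6, cKO 2, cKO 5.

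Fc gamma receptors bind the constant part of immunoglobulin G and let macrophages take up antibody-coated particles. Most of them do not signal by themselves: they pair with a short adaptor whose tail holds an immunoreceptor tyrosine-based activation motif (ITAM), a pair of tyrosines each followed by a leucine or isoleucine. Kinases of the SRC family such as LYN phosphorylate the ITAM, and SYK then docks on it through its SH2 domains. FCER1G is the adaptor of the activating Fc receptors, and TYROBP (DAP12) is that of TREM2, a lipid-sensing receptor of microglia. FCGR2B is the inhibitory Fc gamma receptor and carries an inhibitory motif (ITIM) in its own tail.

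The coding bases of the motifs are shown because they separate the adaptors from the receptors that depend on them. They were read from GENCODE M21 transcripts (GRCm38), 5′ to 3′ on the coding strand, with the codons of the defining residues in capitals (tyrosine and the leucine or isoleucine after it, and for Fcgr2b also the isoleucine upstream of the tyrosine).
Fcer1g: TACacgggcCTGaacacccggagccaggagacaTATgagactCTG
Tyrobp: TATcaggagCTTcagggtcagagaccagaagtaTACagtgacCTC
Fcgr2b: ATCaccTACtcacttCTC
The Fcer1g motif begins at codon 65 of 86 and spans exons 4 and 5 of 5 (chr1:171229889-171230072, minus strand). The Tyrobp motif begins at codon 92 of 114 and spans exons 4 and 5 of 5 (chr7:30415670-30417382, plus strand). Pairs of tyrosine codons were counted with 9 to 11 codons between them and a leucine or isoleucine codon 3 codons after each. Such a pair was found once in each adaptor and in none of the other 7 coding sequences. The Fcgr2b stretch lies in exon 8 of 8 (chr1:170961071-170961088, minus strand), with its tyrosine at codon 319. The looser inhibitory pattern also matched elsewhere among the members, including 3 places in Fcgr1 and 2 in Lyn, so a match alone marks no inhibitory tail.

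Library totals ran from 17233115 to 19305078 reads, and 3 reads corresponded to 0.155 to 0.174 CPM (read counts scaled to the total of the library, the unit of the deposited levels). The members had between 194 reads (Tyrobp in cKO 2) and 28831 reads (Fcgr3 in cKO 5). The targeted gene, Bach1, stood at 45.8, 21.6, 29.98 and 35.4 CPM, with both cKO values between those of the controls. Which exons are floxed is not stated in the labels, and the count covers the whole gene, so it is no check of a partial deletion. The libraries stood apart in their cell markers: the 20 microglia markers summed to 27791, 43468, 10394 and 38392 CPM. The sum of the 11 neuron markers was 1164, 367, 4070 and 326 CPM, and that of the 8 endothelial markers with counts 3028, 563, 2360 and 298 CPM. In bulk samples, fewer cells of a type and less RNA per cell cannot be told apart.

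All 9 genes had their lowest value in cKO 2 and their second lowest in control 1. That order was found in 15.8% of the 15951 genes tested, and cKO 2 was the lowest library for 25.2% of them. The highest library was cKO 5 for 5 members and control 6 for the other 4, at 2.45 to 4.26 times the lowest. The groups of libraries overlapped for every member, whereas 15.9% of all genes tested had both cKO libraries on one side of both controls (6.57% below and 9.31% above). The summed microglia markers had their lowest value in cKO 2 and their second lowest in control 1 as well.

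**Figure D1:**
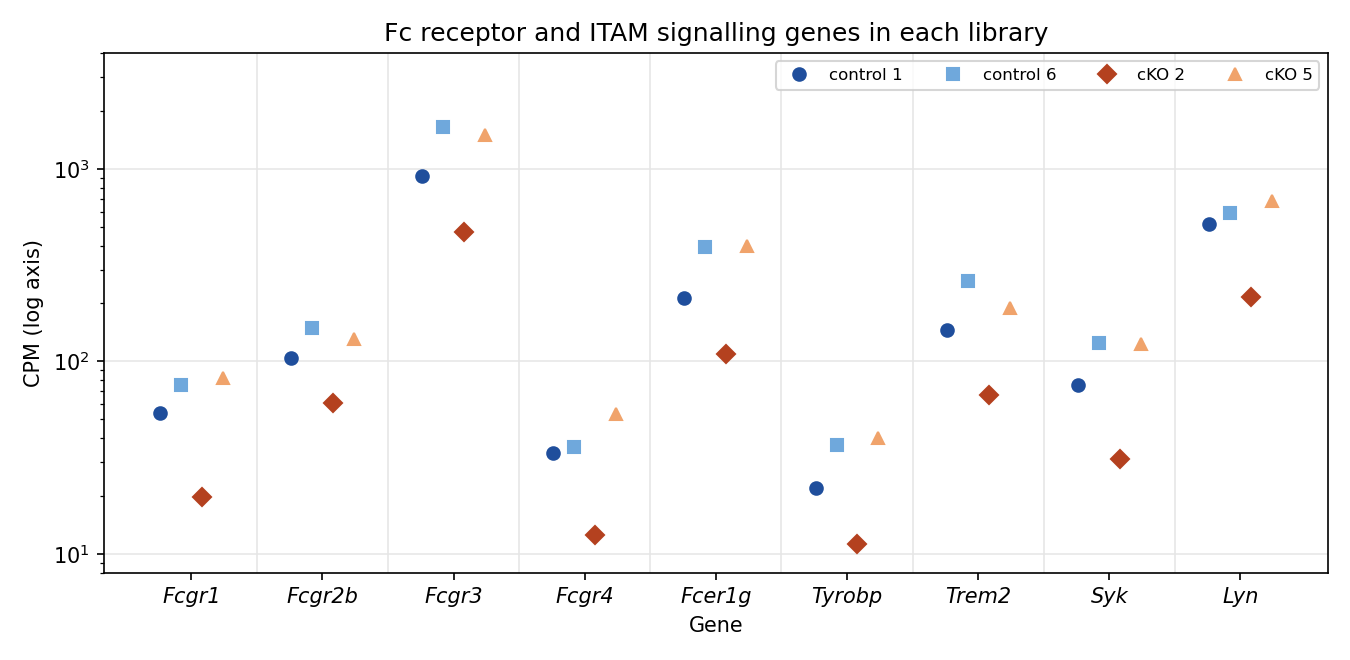
CPM (log axis) of the 9 genes in each of the 4 libraries, 1 point per library, with no error bars. The cKO 2 point is the lowest for every gene and the control 1 point the second lowest, while control 6 and cKO 5 hold the upper places.

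Among the activating receptors, Fcgr1 (ENSMUSG00000015947, chromosome 3, 96282909 to 96293969, minus strand) encodes the high-affinity receptor for immunoglobulin G. It stood at 53.97 and 75.7 CPM (controls 1 and 6), 19.9 CPM (cKO 2) and 81.8 CPM (cKO 5). The cKO libraries thus lay on either side of both controls, with a control mean of 64.8 ± 15.3 CPM and a cKO mean of 50.8 ± 43.8 CPM (SD, n = 2 per group). Fcgr3 (ENSMUSG00000059498, chromosome 1, 171051174 to 171064935, minus strand) encodes a low-affinity activating receptor and stood at 919 and 1644 CPM (controls 1 and 6), 471 CPM (cKO 2) and 1493 CPM (cKO 5). Control 6 and cKO 5 were close to each other, and cKO 2 was below control 1. Fcgr4 (ENSMUSG00000059089, chromosome 1, 171018920 to 171029761, plus strand) encodes an activating receptor of intermediate affinity. It stood at 33.4 and 36.04 CPM (controls 1 and 6), 12.5 CPM (cKO 2) and 53.2 CPM (cKO 5). The controls were close to each other here and the cKO libraries differed 4.26-fold, the widest ratio between the cKO libraries among the members.

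The inhibitory receptor gene Fcgr2b (ENSMUSG00000026656, chromosome 1, 170958617 to 170976547, minus strand) stood at 105 and 149 CPM (controls 1 and 6), 60.8 CPM (cKO 2) and 131 CPM (cKO 5). It showed the narrowest range of the members, with cKO 5 at 2.15 times cKO 2. Fcgr2b, Fcgr4 and Fcgr3 are neighbours on chromosome 1. The coding sequences of Fcgr2b and Fcgr3 share an identical stretch of 129 bases, shown because reads inside it cannot be assigned to one gene by sequence:
Fcgr2b and Fcgr3: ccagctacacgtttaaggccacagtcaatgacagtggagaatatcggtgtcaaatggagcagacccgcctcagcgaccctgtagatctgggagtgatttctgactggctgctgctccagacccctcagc
It spans exons 3 and 4 of both genes (chr1:170966674-170968081 in Fcgr2b and chr1:171054167-171057792 in Fcgr3, both on the minus strand). Of the 50-base windows of Fcgr3 transcripts, 9.58% also occurred in another gene, all of them in Fcgr2b, and of those of Fcgr2b 4.38% did. These are shares of windows and not of reads. Fcgr3 had 7.74 to 11.4 times the reads of Fcgr2b, so Fcgr3 reads assigned to the wrong gene would weigh far more on the Fcgr2b count than on that of Fcgr3, and the share of such reads was not measured. With their reads summed, the log2 fold change was −0.40 ± 0.84 (SE), against −0.43 for Fcgr2b and −0.40 for Fcgr3 alone. For Lyn, 13.4% of the 50-base windows also occurred in Gm11787. Fcgr1, Fcgr4, Fcer1g, Tyrobp, Trem2 and Syk had no such window. The sources used here do not state whether counting used strand, and 155 exonic bases of Fcgr2b overlap the antisense gene Gm38204 and 248 of Lyn the opposite-strand gene Gm26857.

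The adaptor genes followed the receptors. Fcer1g (ENSMUSG00000058715, chromosome 1, 171229572 to 171234365, minus strand) stood at 214 and 394 CPM (controls 1 and 6), 109 CPM (cKO 2) and 398 CPM (cKO 5). Tyrobp (ENSMUSG00000030579, chromosome 7, 30413760 to 30417585, plus strand) stood at 21.98 and 36.7 CPM (controls 1 and 6), 11.2 CPM (cKO 2) and 39.8 CPM (cKO 5). For both adaptors, control 6 and cKO 5 were nearly equal and cKO 2 was lowest. Trem2 (ENSMUSG00000023992, chromosome 17, 48346401 to 48354147, plus strand) stood at 145 and 260 CPM (controls 1 and 6), 67.01 CPM (cKO 2) and 190 CPM (cKO 5). Here control 6 was well above cKO 5, and the control mean was 203 ± 81.7 CPM against 128 ± 86.9 CPM for cKO (SD, n = 2 per group).

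Of the kinase genes, Syk (ENSMUSG00000021457, chromosome 13, 52583173 to 52648792, plus strand) stood at 75.1 and 125 CPM (controls 1 and 6), 31.3 CPM (cKO 2) and 123 CPM (cKO 5). Lyn (ENSMUSG00000042228, chromosome 4, 3678115 to 3813122, plus strand) stood at 515 and 591 CPM (controls 1 and 6), 216 CPM (cKO 2) and 677 CPM (cKO 5). The control values of Lyn were close, and the cKO libraries lay on either side of them.

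Levels between genes were compared per kilobase of the longest coding transcript, as means of the 4 libraries. Fcgr3 was highest at 840 CPM per kb and Fcer1g next at 408 CPM per kb. Trem2 (152 CPM per kb) and Lyn (144 CPM per kb) did not differ beyond the spread between libraries. Tyrobp stood at 45.96 CPM per kb, below Fcer1g in every library. Fcgr2b (31.4 CPM per kb), Fcgr4 (26.9), Fcgr1 (22.3) and Syk (16.5) were lowest, each overlapping its neighbours in that order across the libraries. Dividing by all merged exons instead gave 33.5 CPM per kb for Trem2, which placed it below Tyrobp (41.1 CPM per kb). The merged exons of Trem2 come to 4946 bases against 1088 for its coding transcript, and the annotation includes a retained-intron transcript, so its place in the order depends on the length used.

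The comparison of cKO with control asks which microglial genes respond to the loss of Bach1. None of the 9 members passed the test: with the quasi-likelihood test of edgeR, 0 reached the adjusted threshold of 0.05, as did 0% of the 15951 genes tested. At an unadjusted p under 0.05 there were 0 members and 0.307% of all genes (49). DESeq2 and limma-voom called 0 genes after adjustment and 74 and 37 genes before it, 0 of them members. All 9 log2 fold changes were below 0, as were 47.2% of those of all genes, with a median of −0.34 against 0.03 for all genes, but scaled on the microglia markers 8 of the 9 were above 0, as were 94.1% of all genes. The 9 values share the same 4 libraries and are not separate observations. Trem2 had the lowest value, −0.68 ± 0.75 (SE; adjusted p = 0.9997 in edgeR), with a 95% interval of −2.71 to 1.35. Fcgr4 had the value closest to 0, −0.06 ± 0.84, with an interval of −2.32 to 2.2. The intervals of all members held both a 2-fold fall and a 2-fold rise, so at this precision neither could be told from no change. The other 7 members had values between −0.43 (Fcgr2b) and −0.21 (Tyrobp).

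The sign depended on which libraries were in the fit. When cKO 2 was left out, 8 of the 9 log2 fold changes were above 0, as were 47.9% of those of all genes. The median of the members was then 0.39, with the largest value for Fcgr4 (0.72 ± 0.39, SE), while Trem2 was at −0.01. Without cKO 5 all 9 were below 0 (48.6% of all genes) with a median of −1.73, from −1.33 for Fcgr2b to −1.97 for Fcgr1. Each of the 9 then had an unadjusted p under 0.05, as did 10.5% of all genes in that fit (1784), but the smallest adjusted p of a member was 0.468 in edgeR. Without control 6 the median was 0.09 and 6 of the 9 were above 0 (56.9% of all genes). In that fit and the others that leave out a library, the arm with 1 library is assumed to vary like the other arm.

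**Figure D2:**
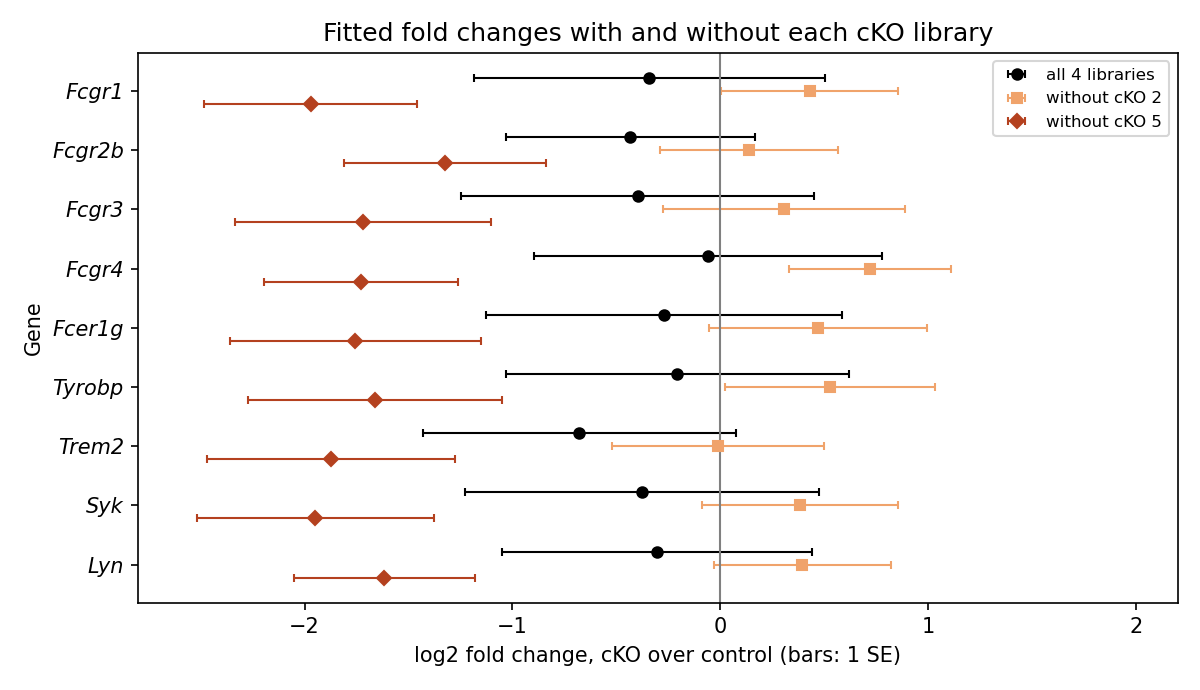
Log2 fold change of cKO over control for each gene (points) with its SE (bars), fitted on all 4 libraries, without cKO 2 and without cKO 5. With all libraries the values run from −0.68 to −0.06 (8 of 9 are above 0 when scaled on the microglia markers, not drawn). Without cKO 2, 8 of 9 lie above 0, and without cKO 5 all lie at or below −1.33.

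The authors deposited each cKO library against each control library, and these 4 comparisons share libraries. In the authors' deposited table of cKO 2 against control 6, all 9 members were called lower (p under 0.05 and a log2 change of at least 1), as were 13.4% of its genes (33.7% were called higher), with log2 fold changes from −1.996 for Syk to −1.29 for Fcgr2b. In the authors' deposited table of cKO 2 against control 1, 5 members were called lower (Fcgr1, Fcgr4, Lyn, Syk and Trem2), against 11.6% of its genes (20.0% were called higher). Fcgr2b (−0.78), Fcgr3 (−0.96), Fcer1g (−0.97) and Tyrobp (−0.97) were lower there too, but short of the log2 threshold of 1. In the authors' deposited table of cKO 5 against control 1, all 9 had values above 0, up to 0.90 for Fcer1g, and 0 were called higher, against 8.79% of genes. In the authors' deposited table of cKO 5 against control 6, 0 members were called in either direction, against 9.23% of genes called higher and 11.4% called lower. The values there ran from −0.46 for Trem2 to 0.56 for Fcgr4. These calls compare single libraries and not the genotypes.

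The members were then set against the microglia markers of the same library, since both varied together. Summed over the 9 genes, the libraries held 7.49, 7.62, 9.60 and 8.30 reads per 100 marker reads. Both cKO libraries were above both controls, by 0.24 on the log2 scale, with p = 0.33 in an exact two-sided permutation test, the smallest value that 2 against 2 libraries can give. Single members varied between libraries by 1.18-fold (Syk) to 1.72-fold (Fcgr2b) on this scale, against the 2.45 to 4.26-fold range of their CPM. Fcgr3, Fcer1g, Tyrobp and Syk had both cKO libraries above both controls per marker read, and so did 13.2% of all genes tested, while 0 members and 1.08% of all genes had both below. For Syk the 95% counting interval of cKO 2, 0.276 to 0.328, overlapped those of both controls. On this scale Fcer1g stood at 0.770, 0.906, 1.05 and 1.04, and Tyrobp at 0.0791, 0.0845, 0.108 and 0.104. The cKO libraries were close to each other for these adaptors, and the difference from the controls was small beside the range of the CPM values. Border macrophage markers, which belong to cells that also express Fc receptors, summed to 943, 1205, 403 and 1815 CPM over the 8 of 9 with counts. Their part in these ratios was not tested.

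**Figure D3:**
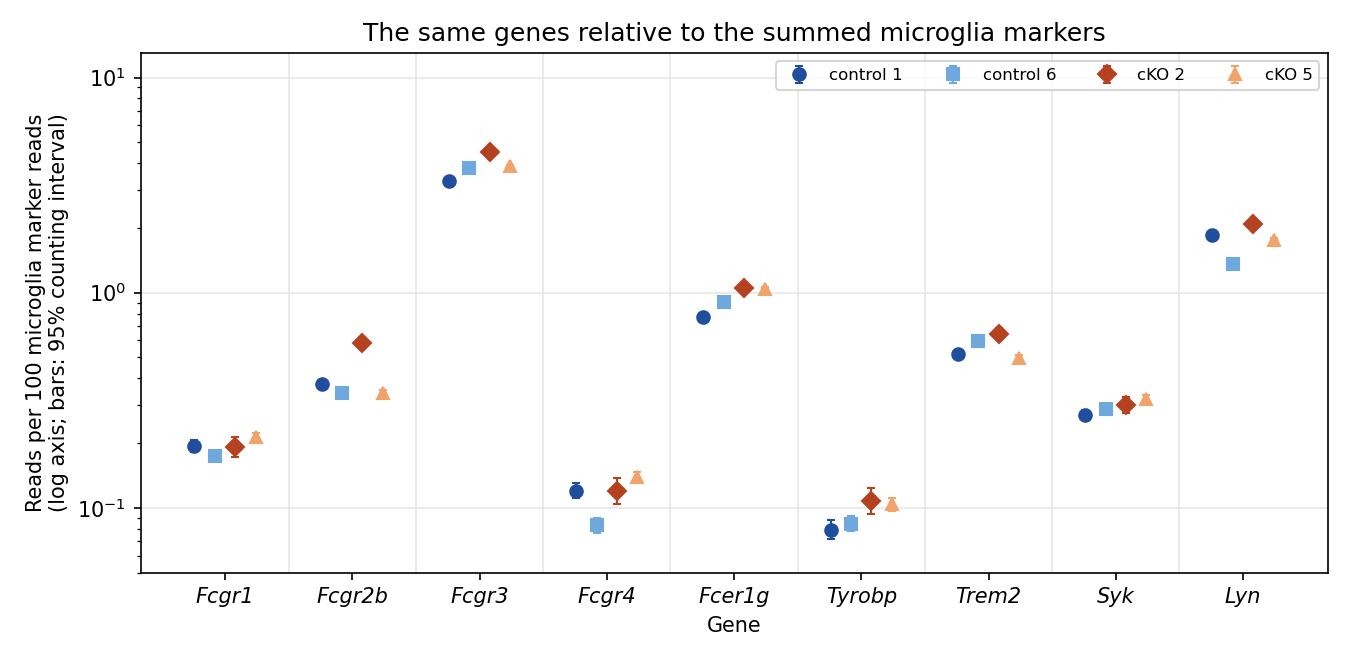
Reads of each gene per 100 reads of the summed microglia markers (log axis) in the 4 libraries, with exact 95% counting intervals as bars. Fcgr2b stands highest in cKO 2 and Fcgr4 lowest in control 6, and the other genes vary by less than 1.6-fold.

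Fcgr2b differed most on this scale, with 0.376, 0.343, 0.585 and 0.341 reads per 100 marker reads. Its 95% counting interval in cKO 2, 0.550 to 0.622, lay above those of the other libraries, the highest of which ended at 0.394. Such intervals cover counting error only. Fcgr4 stood at 0.120, 0.0829, 0.120 and 0.139, so control 6 stood below the others. Trem2 stood at 0.521, 0.599, 0.645 and 0.495, and Lyn at 1.85, 1.36, 2.07 and 1.76. The cKO values of Trem2 lay on either side of both controls.

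Ratios within a library need no scaling between libraries. The ratio of the activating receptors to the inhibitory one (reads of Fcgr1, Fcgr3 and Fcgr4 over those of Fcgr2b) was 9.62, 11.8, 8.27 and 12.4. The cKO libraries enclosed both controls, and the mean difference was −0.07 on the log2 scale (exact two-sided permutation p = 1; the smallest possible is 0.33). The 2 libraries with the higher ratios, control 6 and cKO 5, were those with the lower endothelial sums, whose part in the ratio was not tested. Most of the activating reads were from Fcgr3. The ratio of Fcgr1 and Fcgr4 alone to Fcgr2b was 0.835, 0.749, 0.532 and 1.03, with control 1 above control 6, so the other activating receptors did not share that order. The Fcer1g to Tyrobp ratio was 9.73, 10.7, 9.73 and 9.99, and the 95% counting intervals of all 4 overlapped. No difference in the balance of the 2 adaptors was therefore detectable at this depth. Reads of Trem2 per read of Tyrobp were 6.59, 7.09, 5.98 and 4.77. Both cKO libraries were below both controls here (log2 difference −0.36, exact two-sided permutation p = 0.33), but the counting interval of cKO 2, 5.13 to 6.998, overlapped those of the controls. Per microglia marker read, the log2 difference of cKO from control was 0.015 for Trem2 and 0.37 for Tyrobp. In the edgeR fit on all 4 libraries, the log2 fold change was −0.68 for Trem2 and −0.21 for Tyrobp. Which of the 2 genes held the difference in the ratio thus depended on the scale. Tyrobp had only 194 reads in cKO 2. The Lyn to Syk ratio was 6.85 and 6.89 in control 1 and cKO 2 and 4.73 and 5.52 in control 6 and cKO 5, so each genotype held a high and a low value (exact two-sided permutation p = 0.67).

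**Figure D4:**
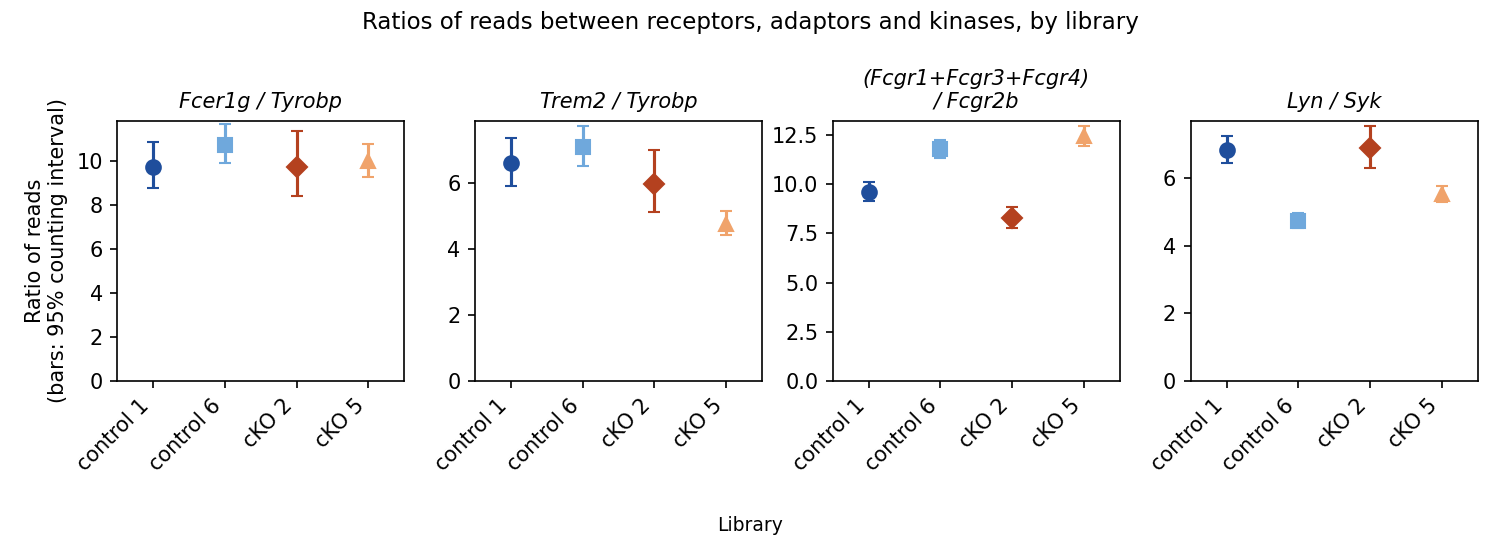
Ratios of reads within each library (points) with exact 95% counting intervals (bars), all axes starting at 0. Fcer1g over Tyrobp is level from 9.73 to 10.7, Trem2 over Tyrobp is lowest in cKO 5 at 4.77, and the other 2 ratios have a higher and a lower value in each group.

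Markers of other cells that express these receptors and adaptors were followed in the same libraries. The 10 monocyte and neutrophil markers with counts summed to 134, 195, 71.7 and 251 CPM, led by Ngp (68.3, 110, 40.1 and 148 CPM) and S100a9 (24.2, 26.1, 10.2 and 35.6 CPM), both neutrophil granule genes. The mast cell, natural killer and lymphoid list summed to 64.9, 112, 27.04 and 124 CPM. Nearly all of it was from Cd79b (61.8, 109, 24.8 and 118 CPM), a signalling chain of the B cell receptor that itself carries an ITAM. Like the members, Cd79b was lowest in cKO 2 and second lowest in control 1. Which cells its reads came from was not tested. The mast cell gene Cpa3 had 0.858, 0.986, 0.751 and 4.92 CPM. Cd3e and Cd3g were not analysed here. The mast cell genes Tpsb2 and Mcpt4 had 17 and 13 reads in control 6 and 0 reads in both cKO libraries. Control 1 had no listed count for either gene, so these reads come from control 6 alone, whereas Cpa3 was highest in cKO 5. The part of these cells in the members' values was not tested. All 20 microglia markers, which define the labelled cell type, had reads in every library: Csf1r, the growth factor receptor of microglia, had 5365, 7212, 1936 and 6621 CPM, and C1qa, a complement gene, had 4213, 5877, 1591 and 6924 CPM.

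Other genes of the pathway were given by lists, and in each of them 0 genes rose and 0 fell at the adjusted threshold and 0 were past an unadjusted p of 0.05, with edgeR, DESeq2 and limma-voom alike. Scaled on the microglia markers, the list medians were above 0 (0.05 to 0.66), and without cKO 2 they ran from −0.13 to 0.30, so the signs given here hold for the TMM scaling (a normalisation on the bulk of all genes) with all 4 libraries. The first list held other receptors that couple to ITAM adaptors or carry a hemITAM, a form of the motif with a single tyrosine. The adaptor gene Hcst was in it as well. Of its 25 genes, 18 were tested, 13 had a log2 fold change below 0, and the median was −0.44. Siglech, a TYROBP-coupled lectin of microglia, stood at 796 and 1290 CPM (controls 1 and 6), 235 CPM (cKO 2) and 1065 CPM (cKO 5). Clec5a, another TYROBP partner, had 77.3, 128, 31.9 and 119 CPM, and the integrin chain gene Itgb2 had 171, 222, 83.9 and 249 CPM. Itgam, the other chain of complement receptor 3, stood at 100.4, 117, 24.96 and 93.9 CPM, so both cKO values were below both controls, as for 6.57% of all genes. In this list cKO 2 was the lowest library for 14 of the 18.

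Among the other immunoglobulin-binding and Fc receptor-like genes, 5 of 11 were tested, all 5 were below 0 and the median was −0.47. Fcrls, an Fc receptor-like gene typical of microglia, had 2713, 3912, 1073 and 3667 CPM. Fcgrt, the neonatal Fc receptor, had 792, 972, 363 and 947 CPM, and Fcrl1 had 12.9, 18.2, 5.78 and 16.8 CPM. These receptors kept the order of the members, with cKO 2 lowest. Trim21, a cytosolic antibody receptor, stood at 5.89 and 7.95 CPM (controls 1 and 6), 2.48 CPM in cKO 2 and 1 read (0.0518 CPM) in cKO 5.

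Of the other SRC, SYK and TEC family kinases and their regulators, 12 of 15 were tested, all 12 were below 0 and the median was −0.24. Btk, a TEC family kinase, had 77.5, 91.2, 26.3 and 102 CPM. Ptprc (CD45), the phosphatase that releases SRC kinases from inhibition, had 204, 218, 66.4 and 225 CPM, and Ptprj had 72.3, 85.1, 19.7 and 123 CPM. For Btk, Ptprc and Ptprj cKO 2 was the lowest library and cKO 5 the highest, and cKO 2 was the lowest for 8 of the 12.

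All 29 adaptors and effectors downstream of SYK were tested, 23 were below 0 and the median was −0.30. Vav1, an exchange factor, had 322, 426, 129 and 466 CPM, and the small GTPase gene Rac2 had 307, 469, 104 and 525 CPM. Skap2, an adaptor, had 334, 574, 146 and 508 CPM, and the actin regulator Nckap1l 358, 452, 114 and 429 CPM. The cKO 2 library was the lowest for 24 of the 29.

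The inhibitory list held ITIM receptors, phosphatases and adaptors, and the receptor genes Siglec1 and Cd200r1 were in it as well. Of its 28 genes, 26 were tested, 23 were below 0 and the median was −0.41. Sirpa, the receptor for CD47, had 2278, 3911, 917 and 3774 CPM. Inpp5d (SHIP1), the lipid phosphatase recruited by FCGR2B, had 640, 869, 274 and 783 CPM, and Ptpn6 (SHP-1) had 342, 507, 129 and 475 CPM. The collagen receptor gene Lair1 had 295, 498, 154 and 446 CPM. The cKO 2 library was the lowest for 25 of the 26, against 25.2% of all genes.

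The list of TREM2 ligands and of the proteases that shed or cleave it had 7 of the 13 tested below 0. Its median was −0.03 against 0.03 for all genes. The genes Ms4a6d, Ms4a4a and Ms4a6b, which are of neither kind, were in this list as well. The cKO 2 library was the lowest for 9 of the 13. Apoe, a lipoprotein ligand of TREM2, had 5729, 8419, 2681 and 9547 CPM. The protease gene Adam10 had 342, 302, 257 and 333 CPM, and the gamma-secretase gene Ncstn had 522, 582, 412 and 459 CPM. Both of these broadly expressed genes varied less between libraries than Trem2 did.

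The genes whose profile over the 4 libraries was most like the mean of the members were ranked among 4267 genes with a mean of at least 50 CPM, by the root-mean-square distance of centred log2(CPM + 0.5) values. They were Tmem144 (distance 0.0146), Agps (0.0171), the lysosomal enzyme genes Gusb (0.0237) and Ctsz (0.0270), and Cd84 (0.0305), a receptor of leukocytes, against a median distance of 0.775. Gusb had 902, 1401, 413 and 1361 CPM. The likeness rests on 4 libraries that differ in their share of microglial reads. The members themselves lay between 0.0855 (Tyrobp) and 0.228 (Fcgr2b) from their own mean.

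The sequence before the start sites of the members was searched for GAGGAA (or TTCCTC on the other strand). GAGGAA is a core of sites bound by the macrophage factor PU.1. Motifs of the kind bound by BACH1 and related factors were searched for as well. Whether such sites have a part in the order of the libraries was not tested. RefSeq promoters (GRCm38.p6) were matched for 7 of the 9 genes. In the 250 bases before the first listed start site, GAGGAA or TTCCTC was present in 4 of the 7, namely Fcgr1, Fcgr3, Fcgr4 and Trem2, and in 23.1% of the 27025 promoters. Syk had none before its first start but 1 before its second listed start. The 100 bases before the start are shown for these 4, with the motif in capitals.
Fcgr1: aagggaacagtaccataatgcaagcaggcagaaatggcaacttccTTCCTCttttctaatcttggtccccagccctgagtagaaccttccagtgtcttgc
Fcgr3: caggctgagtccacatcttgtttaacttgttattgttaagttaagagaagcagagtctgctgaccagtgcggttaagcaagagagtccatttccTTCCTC
Fcgr4: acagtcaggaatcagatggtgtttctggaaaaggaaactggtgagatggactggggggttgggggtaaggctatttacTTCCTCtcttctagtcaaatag
Trem2: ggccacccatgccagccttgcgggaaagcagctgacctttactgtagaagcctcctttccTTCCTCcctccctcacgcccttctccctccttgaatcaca
They lie at chr3:96293970-96294069 (minus strand), chr1:171059404-171059503 (minus strand), chr1:171018826-171018925 (plus strand) and chr17:48346301-48346400 (plus strand). Neither TGAGTCA (or TGACTCA on the other strand), the core shared by BACH1 and AP-1 sites and present in 4.43% of promoters, nor TGACNNNGC (or GCNNNGTCA), the antioxidant response element core present in 10.1%, occurred in the 250 bases before the first listed start of the 7 genes, nor before the other listed starts of Fcgr3 and Syk. A match is a description of letters in this window and does not show that a factor binds.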

How the data were processed

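Total RNA of 2 control and 2 cKO microglia samples was isolated with Trizol reagent and read on an Illumina platform, per the labels' protocols. Per the submitters' processing notes, Bowtie2 2.2.3, TopHat2 2.0.12, HTSeq 0.6.0 and the mm9 build were named, without roles or settings. Gene positions in the tables matched GRCm38 (90.3% identical, 99.2% with starts within 5000 bp), so GENCODE M21 was used. The authors deposited raw read counts per Ensembl gene and CPM, each count divided by a fixed library total, a count of 0 being given 0.5 reads. The authors' fold change divides the CPM of 1 cKO library by that of 1 control library, a ratio that they also gave as log2. For the p-value that the authors gave with it, raw and adjusted, the sources used here name no test.

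Counts were joined on the gene ID; 18723 of 21981 genes had a count in every library. The groups were compared with edgeR 4.0.16 (R 4.3.3), with TMM scaling, filterByExpr with a minimum count of 10 and the quasi-likelihood test. The p-values were two-sided, with Benjamini-Hochberg adjustment at 0.05 over 15951 genes. The same fit was also run on simulated counts with known changes and no shift in cell makeup between libraries. That run does not show how the test does under the marker shifts seen here. Standard errors were derived from the log2 fold change and the F statistic. Intervals of ratios are exact (Clopper-Pearson, 95%). Named were all members, the 4 most abundant genes of each pathway list, the 2 most abundant of each cell type list and the 5 nearest profiles. The values of Bach1, Tpsb2 and Mcpt4 are given beyond that rule. A few genes that the rule names are not reported here. The neuron, endothelial, pericyte and erythroid lists served as markers of other cells. The members and lists were chosen with earlier results of these data known. Alternatives were RLE size factors, scaling on the microglia markers, DESeq2 1.42.0, limma-voom 3.58.1, no filter, summed Fcgr2b and Fcgr3 reads, and leaving out each library.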

Additional observations from a re-analysis of the deposited data

How the results depend on the processing

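No member was past the adjusted threshold under any of the 10 alternatives, and 0 genes in all were past it under each, with 10 to 1784 genes at an unadjusted p under 0.05. The median log2 fold change over the members, −0.34, was −0.60 with limma-voom and 0.13 when scaled on the microglia markers, where the median of all genes was 1.07. It ran from −1.73 to 0.39 when 1 library was left out. Scaled on the microglia markers, the log2 fold change changed sign for 8 of 9 members, to 0.0158 for Fcgr1, 0.24 for Fcgr2b, 0.13 for Fcgr3, 0.23 for Fcgr4, 0.20 for Fcer1g, 0.25 for Tyrobp, 0.0386 for Syk and 0.13 for Lyn, and that of Trem2 was −0.09. With 1 library left out, the values ran from −1.97 to 0.43 for Fcgr1, −1.33 to 0.14 for Fcgr2b, −1.72 to 0.31 for Fcgr3, −1.73 to 0.72 for Fcgr4, −1.76 to 0.47 for Fcer1g, −1.66 to 0.53 for Tyrobp, −1.87 to −0.01 for Trem2, −1.95 to 0.38 for Syk and −1.62 to 0.39 for Lyn. RLE size factors, DESeq2, limma-voom, no filter and summed Fcgr2b and Fcgr3 reads kept every sign. The log2 difference of the activating to inhibitory ratio, −0.07, was −0.09 without Fcgr3 and ran from −0.36 to 0.23 when 1 library was left out. The cause of these shifts was not tested. No paired analysis was possible because the groups share no replicate number.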

Other observations

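Tyrobp ranked 7 of 29 from the bottom in level per kilobase among the members and the 20 microglia markers, at 45.96 CPM per kb, next below the transcription factor gene Sall1 (47.2 CPM per kb). Its receptor partner Trem2 was at 152 CPM per kb, and the complement gene C1qa was highest at 4472 CPM per kb. These levels are per kilobase of the longest coding transcript. Divided by all merged exons, Trem2 stood at 33.5 CPM per kb, below Tyrobp at 41.1 CPM per kb. Tyrobp has the shortest coding transcript of the 29 genes, at 597 bases, no exonic base shared with another annotated gene and no 50-base window in common with one. Fcer1g, the next shortest at 683 bases, had 408 CPM per kb.

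The erythroid markers, which include the hemoglobin gene Hba-a1 (140, 54.4, 114 and 45.9 CPM) and the heme synthesis gene Alas2 (90.6, 36.04, 55.6 and 37.9 CPM), summed to 306, 110, 220 and 112 CPM. The 7 pericyte markers summed to 3850, 752, 3472 and 280 CPM. Both lists were higher in control 1 and cKO 2, the libraries with the lower values of all 9 members.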
